A study of Homo sapiens with 15 samples.

Results

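The subunits of the transcription factor AP-1 and a set of immediate early genes were followed in U87MG cells, an established human glioblastoma line. The 10 genes were FOS, FOSB, FOSL1, FOSL2, JUN, JUNB, JUND, EGR1, IER2 and IER3, chosen by symbol from the 25737 entries of the deposited gene table. Their symbols occurred in 15 entries, because IER3 had 6, of which 5 held no count in any library. The remaining entry of each gene was used, and all 10 passed the limit on low values that 12870 entries met.

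Cells were collected 24 h after infection with lentivirus for GFP, which served as the control, or for overexpression of ID1, ID2, ID3 or ID4. ID proteins are helix-loop-helix factors that lack a DNA-binding region and hold other helix-loop-helix factors away from DNA. Each of the 5 groups had 3 libraries, made with the QuantSeq kit, which reads the 3′ ends of polyadenylated RNA. All groups, GFP included, went through viral infection, and uninfected cells were not analysed here. The labels number the libraries within each group without saying that they came from separate cultures, so p-values measure only the spread between these samples, which may be technical.

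AP-1 is a dimer of a FOS and a JUN family protein, or of JUN family proteins alone, that binds short palindromic DNA elements through a basic leucine zipper. Transcription of FOS, JUN, EGR1 and the IER genes can rise within minutes of serum, growth factors or stress without new protein synthesis, and most of these transcripts are short-lived. The FOSL genes are induced later and more lastingly, and AP-1 is known in glioblastoma for its part in the mesenchymal state, invasion and wound-type responses. Levels can therefore change with the handling of a culture, and each library is given below.

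Total counts ranged from 11089044 to 15148979 per library, and a level in CPM is a count scaled to its library's total. The detection floor was set at 3 counts, or 0.198 to 0.271 CPM depending on the library, and covers counting error only. ID3 and ID4 counts were higher in the libraries carrying their label than in GFP, but ID1 stood at 247 to 254 CPM in the libraries labelled ID1 against 337 to 350 CPM in GFP. ID2 stood at 43.6 to 46.2 CPM in the libraries labelled ID2 against 83.1 to 88.7 CPM in GFP, so group names follow the labels. ID2 replicate 3 differed from the other ID2 libraries by a chi-square of 10.7 and 11.3 per gene, while all other pairs within a group lay between 2.24 and 5.19. The members' ID2 differences from GFP are given with and without ID2 replicate 3. So are the ID2 calls against GFP of members and related lists. Counts of neighbouring genes and counts over all 4 ID groups used every library. VIM, CD44 and FN1 were abundant, whereas the glial markers GFAP and SOX2 had at most 4 counts in any library. Of 9 markers of other cell types, PTPRC, EPCAM, KRT8, PECAM1, RBFOX3, MOG and ALB had at most 15 counts, and CD68 and SNAP25 were expressed. Summed over the 9, the level was 58.8 to 67.0 CPM in GFP, 64.9 to 70.0 in ID1, 91.7 to 108 in ID2, 70.0 to 89.2 in ID3 and 69.5 to 81.0 in ID4, and its part in the results was not tested.

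Differences are log2 fold changes from edgeR's quasi-likelihood test on the raw counts, with 1 mean per group over all 15 libraries. Adjustment followed Benjamini and Hochberg over the 12870 tested genes, and an adjusted p under 0.05 passed. Every comparison with GFP used the same GFP libraries, so the 4 comparisons are not independent of each other. In bulk samples, fewer cells expressing a gene and less RNA per cell cannot be told apart.

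IER3 and JUN were lower than in GFP in all 4 ID groups, and the other 8 genes did not share 1 direction. With the ID1 label, IER3 and JUN fell and FOSL1 and FOSL2 rose, which made 4 of 10 members against 22.1% of all tested genes (12.4% higher, 9.73% lower). Without ID1 replicate 1, or without ID1 replicate 3, 2 of 10 passed, IER3 and JUN. With the ID2 label, IER3 and JUN fell and JUNB rose, which made 3 of 10 against 35.1% (18.5% higher, 16.7% lower). Without ID2 replicate 3 it was also 3 of 10, against 34.4% of all tested genes. With the ID3 label, IER3 and JUN fell and EGR1 rose, again 3 of 10 against 28.6% (15.1% higher, 13.5% lower). With the ID4 label, IER3 and JUN fell and FOSB rose, 3 of 10 against 21.6% (12.1% higher, 9.51% lower), and 2 of 10 with DESeq2 or edgeR's own filter.

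Passing lower in all 4 comparisons was seen for 2 of the 10 members, IER3 and JUN, and for 4.16% of tested genes. No member passed higher in all 4, which 6.11% of tested genes did. In a single test of any difference among the 5 groups, 6 of 10 members passed (IER3, JUN, JUNB, EGR1, FOSL1 and FOSL2), against 44.8% of tested genes. The median log2 fold change of the 10 members was 0.04, 0.10, 0.07 and -0.07 for ID1 to ID4, beside medians of 0.00 to 2 decimals over all tested genes.

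**Figure D1:**
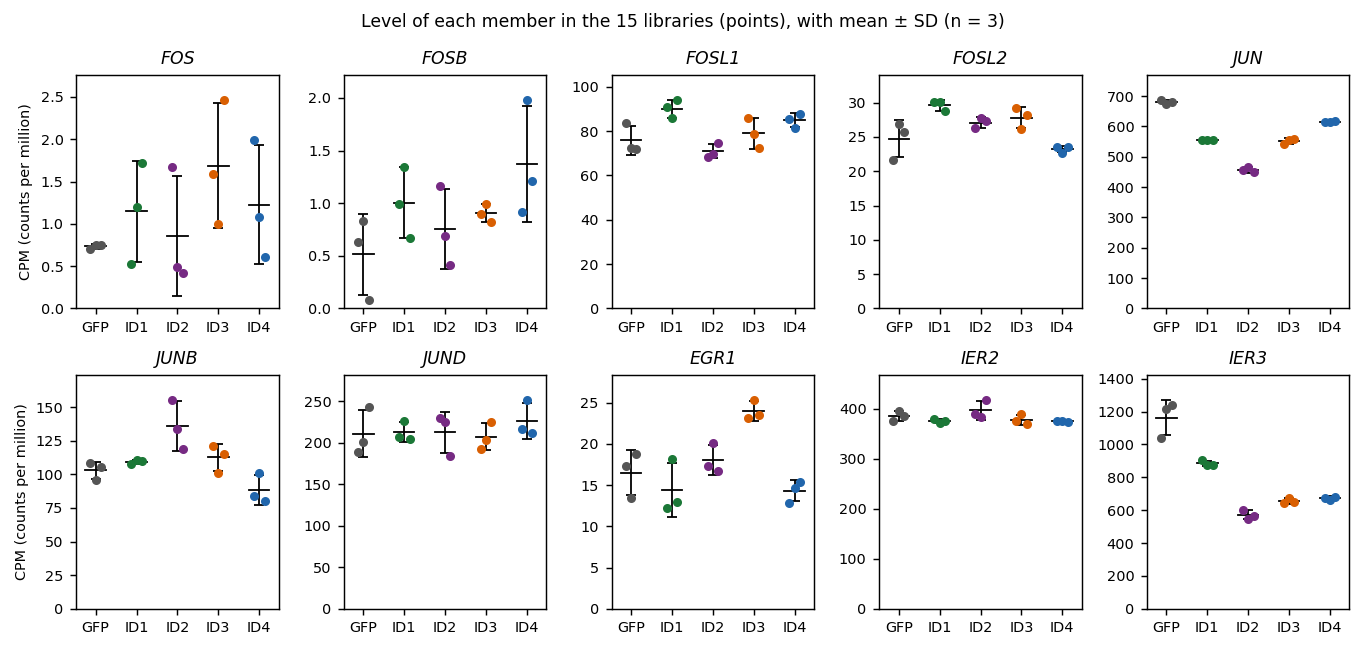
Level of each of the 10 genes in CPM (vertical axes, linear from 0, each with its own range) in GFP, ID1, ID2, ID3 and ID4 (horizontal axes), with 1 point per library, a long bar at the group mean and whiskers for the SD (n = 3). IER3 and JUN lie below all GFP libraries in the 4 ID groups, and EGR1 lies above GFP in ID3 alone. FOS spreads widely within the ID groups but not within GFP, where its 9 to 10 counts lie closer together than counting error gives.

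JUN, the most potent transcriptional activator among the JUN proteins, lies on chromosome 1 of GRCh37 from 59242517 to 59249720 on the minus strand and has a single exon in its canonical transcript. Its promoter is shown because JUN changed in every comparison and because it carries a TGACNTCA element, the form through which AP-1 and ATF dimers are known to act on the JUN gene. The stretch covers 250 bases before and 50 bases from the RefSeq start (table build GRCh38.p14) and had 1 exact match in GRCh37 at chr1:59249670-59249969, minus strand. Capitals mark the TGACNTCA match, whose first base lies 67 bases before the start.
JUN promoter: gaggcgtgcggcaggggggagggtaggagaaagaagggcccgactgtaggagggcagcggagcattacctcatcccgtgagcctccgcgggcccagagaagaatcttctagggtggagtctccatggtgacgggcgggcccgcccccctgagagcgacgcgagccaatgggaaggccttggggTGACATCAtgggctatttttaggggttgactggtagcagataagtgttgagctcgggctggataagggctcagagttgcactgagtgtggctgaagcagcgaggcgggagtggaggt

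The level of JUN was 688, 675 and 682 CPM in the 3 GFP libraries, and 556, 555 and 557 CPM in the libraries labelled ID1. It was 455, 467 and 448 CPM in ID2, 542, 554 and 560 CPM in ID3 and 613, 614 and 618 CPM in ID4. No library of any ID group reached the lowest GFP library, and ID2 and ID4 overlapped with no other group, while ID1 and ID3 did overlap. The log2 fold change was -0.56 (SE 0.04) in ID2, with an adjusted p of 4.39e-10 by edgeR. The decrease was smaller in ID3 (-0.32, SE 0.04, adjusted p = 2.96e-06), ID1 (-0.31, SE 0.04, adjusted p = 6.18e-06) and ID4 (-0.15, SE 0.04, adjusted p = 0.0102). The order of JUN levels was therefore GFP, ID4, ID1 and ID3, then ID2, in which ID1 and ID3 did not differ by the test (0.01, 95% interval -0.07 to 0.10, adjusted p = 0.870). ID3 lay below ID4 (-0.17, adjusted p = 0.00785), ID1 lay below ID4 (-0.16, adjusted p = 0.0237) and ID2 lay below ID3 (-0.24, adjusted p = 0.000363). Without ID2 replicate 3 the ID2 difference was -0.56 (adjusted p = 1.71e-10).

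JUN was also among the members that varied least within groups. Its standard deviation within groups was 1.17% of the mean, close to the 1.14% that counting alone gives at its mean of 7661 counts. The edgeR variation coefficient between libraries is drawn toward the values of other genes, so it is not the observed spread. It was 3.98% for JUN, and 1 of the tested genes had a lower one. The 3 tested genes that start within 1 Mb of JUN had a median log2 fold change of 0.15 in ID1, 0.38 in ID2, 0.03 in ID3 and 0.14 in ID4. None of the 3 was called lower, beside 9.73%, 16.7%, 13.5% and 9.51% of all tested genes. In ID3, 1 of the 3 was called higher, beside 15.1% of all tested genes. With only 3 genes, these counts cannot be set against the shares.

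IER3 encodes a short-lived protein that responds to stress and NF-kB signaling and acts on cell survival. It lies on chromosome 6 of GRCh37 from 30710976 to 30712325 on the minus strand, and HCG20 and IER3-AS1 overlap it on the other strand. Whether the counting used strand is not given in the sources used here, so reads of these genes cannot be told from those of IER3. The same holds for FOSB, FOSL2, JUNB and IER2, which also overlap genes on the other strand. FOSL2 overlaps 1 further annotated gene on its own strand, whose reads counting by strand would not separate.

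IER3 stood at 1040, 1213 and 1238 CPM in GFP, and at 903, 878 and 875 CPM in ID1. Its level was 603, 549 and 564 CPM in ID2, 641, 674 and 653 CPM in ID3 and 677, 662 and 681 CPM in ID4. GFP, ID1 and ID2 each stood apart from every other group, and ID3 and ID4 overlapped. Within GFP, replicate 1 lay below the other 2 libraries, and the standard deviation over GFP was 108 CPM against 10.2 to 27.8 CPM in the ID groups. The log2 fold change was -1.01 in ID2 (SE 0.06, adjusted p = 1.17e-11, edgeR), a level 0.497 times that of GFP. It was -0.85 in ID3 (adjusted p = 3.44e-10), -0.79 in ID4 (adjusted p = 1.69e-09) and -0.41 in ID1 (adjusted p = 1.86e-05), with an SE of 0.06 in each. ID1 stood above each other ID group by 0.38 to 0.60, whereas ID2 and ID3 (-0.16, 95% interval -0.28 to -0.04, adjusted p = 0.0712) and ID3 and ID4 (-0.06, 95% interval -0.18 to 0.07, adjusted p = 0.624) did not differ by the test. Without ID2 replicate 3, the ID2 difference stayed at -1.01 (adjusted p = 7.47e-13).

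The genes around IER3 had smaller median differences than IER3 itself. Among 48 tested genes that start within 1 Mb, the median log2 fold change was -0.16 in ID1, -0.09 in ID2, -0.12 in ID3 and -0.06 in ID4. Of these 48, 5 were called lower in ID1, 5 in ID2, 11 in ID3 and 7 in ID4. The shares called lower over all tested genes were 9.73%, 16.7%, 13.5% and 9.51%. In the same order, 1, 2, 6 and 1 were called higher, beside 12.4%, 18.5%, 15.1% and 12.1%.

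**Figure D2:**
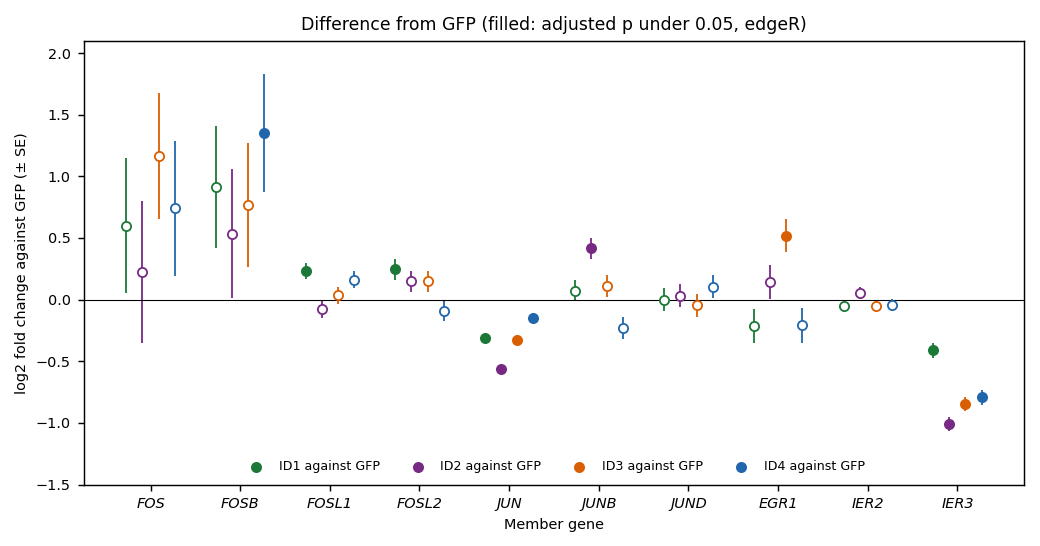
Log2 fold change against GFP (vertical axis) of the 10 genes (horizontal axis) in ID1, ID2, ID3 and ID4 (colours), with points for the edgeR estimate, lines for its standard error and filled points where the adjusted p was under 0.05. IER3 and JUN lie below 0 in every comparison, and FOS and FOSB have the longest lines.

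JUNB, a JUN family member that activates transcription more weakly than JUN and can act against it, differed between the ID groups in both directions. It lies on chromosome 19 of GRCh37 from 12902300 to 12904129 on the plus strand, has 1 exon, and overlaps HOOK2 on the other strand. JUNB stood at 108, 95.6 and 105 CPM in GFP, and at 155, 134 and 119 CPM in ID2. All ID2 libraries lay above all GFP libraries, although ID2 spread more widely than GFP. The log2 fold change was 0.42 (SE 0.09, adjusted p = 0.000698, edgeR), and without ID2 replicate 3 it was 0.50 (adjusted p = 1.73e-05).

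In ID4, JUNB stood at 83.9, 101 and 79.9 CPM, overlapping GFP through replicate 2, with a log2 fold change of -0.23 (adjusted p = 0.0728) that did not pass. It passed without ID4 replicate 2, at -0.33 (adjusted p = 0.0156). Among the 30 tested genes within 1 Mb of JUNB, the median was -0.11 in ID1, 0.005 in ID2, -0.03 in ID3 and -0.24 in ID4. Of these 30, 6, 4, 8 and 12 were called lower in the same order, beside 9.73%, 16.7%, 13.5% and 9.51% of all tested genes. Those called higher were 0, 6, 4 and 0, beside 12.4%, 18.5%, 15.1% and 12.1%. The part of the region in the JUNB value was not tested. JUNB was 108, 111 and 110 CPM in ID1 and 121, 101 and 115 CPM in ID3, both overlapping GFP. Between ID groups, JUNB was 0.64 (log2, SE 0.09) higher in ID2 than in ID4, with an adjusted p of 1.81e-05 by edgeR. Its order was ID2 above ID3, ID1 and GFP, then ID4, and GFP, ID1 and ID3 did not differ by the test in the 3 pairs they form. The steps from ID4 to GFP and from ID4 to ID1 (0.30, adjusted p = 0.0534) did not pass either.

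JUND, the JUN family member that is expressed most steadily in many cell types and often opposes proliferation, lies on chromosome 19 of GRCh37 from 18390504 to 18392432 on the minus strand, again with 1 exon. Its level was 189, 201 and 243 CPM in GFP, 208, 227 and 204 CPM in ID1, 229, 225 and 184 CPM in ID2, 193, 204 and 225 CPM in ID3 and 217, 252 and 212 CPM in ID4. All 4 ID groups overlapped GFP. No comparison with GFP passed, the 95% intervals of the log2 fold change being -0.19 to 0.19 in ID1, -0.16 to 0.22 in ID2, -0.24 to 0.15 in ID3 and -0.09 to 0.30 in ID4. In ID2 the estimate was 0.03, and 0.12 (adjusted p = 0.312) without replicate 3. Its promoter is shown as the second one that holds a TGACNTCA match, here with its first base at position -200 from the start, in a gene without a passing difference. The match in GRCh37 was chr19:18392383-18392682, minus strand, and capitals mark the TGACNTCA and CANNTG matches.
JUND promoter: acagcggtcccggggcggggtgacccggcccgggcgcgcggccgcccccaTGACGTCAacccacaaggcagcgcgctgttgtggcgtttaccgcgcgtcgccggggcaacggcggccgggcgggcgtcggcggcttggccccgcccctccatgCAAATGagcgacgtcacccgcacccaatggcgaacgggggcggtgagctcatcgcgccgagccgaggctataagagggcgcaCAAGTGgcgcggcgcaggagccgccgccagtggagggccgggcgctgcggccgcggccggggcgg

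FOS, the founding member of its family and a textbook immediate early gene, was barely expressed. It lies on chromosome 14 of GRCh37 from 75745529 to 75748933 on the plus strand. FOS stood at 0.704, 0.746 and 0.753 CPM in GFP, which rested on 10, 9 and 9 counts. The 3 GFP libraries lay close together (SD 0.026 CPM at a mean of 0.734 CPM), and every ID group spread by more. Counting alone gives a spread of 25.7% at the mean of 15.1 FOS counts, more than the GFP libraries show. Their closeness is therefore no measure of how steady FOS is in GFP. FOS was 0.528, 1.20 and 1.72 CPM in ID1, 1.68, 0.485 and 0.415 CPM in ID2, 1.59, 0.996 and 2.47 CPM in ID3, and 1.99, 1.08 and 0.605 CPM in ID4. The highest library stood 1.07-fold over the lowest in GFP, against 3.25-fold in ID1, 4.04-fold in ID2, 2.48-fold in ID3 and 3.29-fold in ID4, at 6 to 33 counts per ID library.

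All 3 ID3 libraries lay above GFP for FOS, with a log2 fold change of 1.16 (SE 0.51, 95% interval 0.10 to 2.23, adjusted p = 0.0955, edgeR) that did not pass. It passed without a filter on low values, at 1.17 (adjusted p = 0.0165), and with only the libraries of ID3 and GFP in the fit, at 1.16 (adjusted p = 0.0281). The other differences were 0.60 in ID1 (95% interval -0.54 to 1.74), 0.22 in ID2 (-0.97 to 1.42) and 0.74 in ID4 (-0.40 to 1.88). None of these differences passed, and each interval holds both a decrease and an increase, so no direction can be given. Without ID2 replicate 3, the ID2 difference was 0.55 (adjusted p = 0.498), and without ID2 replicate 1 it was -0.67 (adjusted p = 0.463).

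FOSB, whose truncated protein form accumulates in repeatedly stimulated cells, lies on chromosome 19 of GRCh37 from 45971253 to 45978437 on the plus strand. It overlaps ERCC1 on the other strand. It stood at 0.634, 0.829 and 0.0837 CPM in GFP, from 9, 10 and 1 counts, so that GFP replicate 3 lay under the floor. In ID4 it was 0.920, 1.98 and 1.21 CPM, from 12, 22 and 16 counts, above every GFP library. The log2 fold change of 1.35 (SE 0.48, adjusted p = 0.0486, edgeR) passed narrowly. Leaving out GFP replicate 3 moved it to 0.88 (adjusted p = 0.190) and leaving out ID4 replicate 2 to 1.02 (adjusted p = 0.217), and the call was also lost without GFP replicate 1 (1.52, adjusted p = 0.0773) or ID4 replicate 3 (1.43, adjusted p = 0.0734). FOSB was 0.990, 1.35 and 0.671 CPM in ID1, 1.17, 0.692 and 0.415 CPM in ID2 and 0.901, 0.996 and 0.823 CPM in ID3. These 3 groups overlapped GFP, and their differences of 0.91, 0.54 and 0.77 did not pass (adjusted p = 0.214, 0.466 and 0.281). The FOSB difference in ID2 was 0.82 without ID2 replicate 3 (adjusted p = 0.247).

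FOSL1, which encodes FRA-1, a late FOS family member linked to the mesenchymal state and invasion, lies on chromosome 11 of GRCh37 from 65659520 to 65668044 on the minus strand. Its level was 83.5, 72.4 and 71.8 CPM in GFP and 90.7, 85.9 and 93.9 CPM in ID1, without overlap. The difference was 0.23 (SE 0.07, adjusted p = 0.0175, edgeR). It lost the call in 4 of the 6 fits that left out a GFP or ID1 library, at 0.20 without GFP replicate 2 (adjusted p = 0.0816), 0.19 without GFP replicate 3 (0.0907), 0.23 without ID1 replicate 1 (0.0531) and 0.20 without ID1 replicate 3 (0.0852). FOSL1 stood at 68.5, 69.8 and 74.8 CPM in ID2, 86.1, 78.7 and 72.3 CPM in ID3 and 85.4, 81.6 and 87.9 CPM in ID4, and each of these overlapped GFP. The ID2 difference was -0.08 (adjusted p = 0.410), and -0.13 (adjusted p = 0.196) without ID2 replicate 3. ID4 differed from GFP by 0.16 (adjusted p = 0.107), and by 0.22 (adjusted p = 0.0395) without GFP replicate 1. Among the ID groups, FOSL1 was higher in ID1 than in ID2 by 0.31 (adjusted p = 0.00263) and lower in ID2 than in ID4 by 0.24 on the log2 scale (-0.24, adjusted p = 0.0180). Of the 73 tested genes within 1 Mb of FOSL1, 10 were called lower in ID1, 27 in ID2, 13 in ID3 and 28 in ID4. The shares called lower over all tested genes were 9.73%, 16.7%, 13.5% and 9.51%. In the same order, 2, 4, 10 and 4 were called higher, beside 12.4%, 18.5%, 15.1% and 12.1%.

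FOSL2, which encodes the related protein FRA-2, lies on chromosome 2 of GRCh37 from 28615315 to 28640184 on the plus strand and overlaps FOSL2-AS1. It stood at 21.7, 26.8 and 25.8 CPM in GFP and at 30.2, 30.05 and 28.7 CPM in ID1. The groups did not overlap, and the lowest GFP library was replicate 1. The difference of 0.25 (SE 0.08, adjusted p = 0.0378, edgeR) was 0.15 without GFP replicate 1 (adjusted p = 0.244), and no fit without an ID1 library called it (0.23 to 0.27, adjusted p = 0.0567 to 0.108). FOSL2 was 26.2, 27.8 and 27.3 CPM in ID2, 29.2, 26.1 and 28.2 CPM in ID3 and 23.5, 22.7 and 23.5 CPM in ID4, all overlapping GFP. The 95% intervals of these differences were -0.03 to 0.32, -0.03 to 0.33 and -0.27 to 0.09. In ID2 the estimate was 0.15, and 0.14 (adjusted p = 0.278) without replicate 3. ID1 lay 0.34 above ID4 (SE 0.08, adjusted p = 0.0218).

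EGR1, a zinc finger factor induced through serum response elements by growth factor and ERK signaling, lies on chromosome 5 of GRCh37 from 137801168 to 137804992 on the plus strand. Its promoter is shown because EGR1 differed in ID3 and because it was the only one of the 8 member promoters searched that held CArG boxes, the element bound by serum response factor. The window matched GRCh37 once, at chr5:137800918-137801217, plus strand. Capitals mark the CArG boxes, with first bases 105 and 83 bases before the start.
EGR1 promoter: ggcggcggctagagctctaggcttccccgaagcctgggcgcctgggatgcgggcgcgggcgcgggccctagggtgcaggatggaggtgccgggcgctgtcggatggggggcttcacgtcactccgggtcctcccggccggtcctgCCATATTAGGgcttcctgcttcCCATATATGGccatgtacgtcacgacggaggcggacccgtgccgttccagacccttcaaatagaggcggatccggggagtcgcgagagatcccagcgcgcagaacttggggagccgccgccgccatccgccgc

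EGR1 stood at 17.3, 13.4 and 18.7 CPM in GFP and at 23.1, 25.3 and 23.5 CPM in ID3. All ID3 libraries lay above all libraries of the other 4 groups. The log2 fold change was 0.52 (SE 0.13, adjusted p = 0.00539, edgeR), a level 1.43 times that of GFP. EGR1 was 12.2, 18.2 and 12.9 CPM in ID1, 17.3, 20.1 and 16.7 CPM in ID2 and 12.9, 14.7 and 15.4 CPM in ID4. These 3 groups overlapped GFP and did not pass, with 95% intervals of -0.50 to 0.08, -0.14 to 0.43 and -0.50 to 0.09. The ID2 estimate was 0.14, and 0.19 (adjusted p = 0.326) without ID2 replicate 3. In ID1, replicate 2 lay above the other libraries, and without it the difference was -0.41 (adjusted p = 0.0388). EGR1 was lower in ID1 than in ID3 by 0.73 (-0.73, adjusted p = 0.00134) and higher in ID3 than in ID4 by 0.73 (adjusted p = 0.00127), while ID2 and ID3 did not differ by the test (-0.37, 95% interval -0.64 to -0.10, adjusted p = 0.0565).

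IER2, an immediate early gene that encodes a nuclear protein linked to motility, was among the steadiest members. It lies on chromosome 19 of GRCh37 from 13261225 to 13265725 on the plus strand. It stood at 377, 396 and 386 CPM in GFP, 380, 372 and 375 CPM in ID1, 390, 383 and 418 CPM in ID2, 376, 390 and 370 CPM in ID3 and 375, 376 and 374 CPM in ID4. The ID4 libraries lay just below the lowest GFP library and the other groups overlapped GFP. The 95% intervals of its log2 fold change were -0.16 to 0.04 in ID1, -0.04 to 0.16 in ID2, -0.15 to 0.05 in ID3 and -0.15 to 0.05 in ID4, and none passed. In ID2 the estimate was 0.06, and 0.009 (adjusted p = 0.909) without replicate 3.

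Between the ID groups, 18 of the 60 tests of a member passed, 5 of them for JUN, 4 each for JUNB and IER3, 2 each for FOSL1 and EGR1 and 1 for FOSL2. ID1 and ID2 differed in 4 of 10 members against 18.6% of tested genes, and ID2 and ID4 in 4 of 10 against 18.6%. ID1 and ID4 differed in 3 of 10 against 4.87%, and ID3 and ID4 in 3 of 10 against 11.3%. ID1 and ID3 differed in 2 of 10 against 9.18%, and ID2 and ID3 in 2 of 10 against 15%. Without ID2 replicate 3, 21 of the 60 tests passed.

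Spread within groups differed widely between members, and across all tested genes it was larger at low counts. The edgeR variation coefficient, drawn toward other genes as above, was 32.7% for FOS and 19.8% for FOSB, above those of 99.8% and 97.3% of tested genes. It was 9.96% for EGR1, 8.19% for JUND and 7.53% for JUNB. FOSL1, FOSL2 and IER3 lay between 5.60% and 5.73%, and IER2 at 4.58%. The median of all tested genes was 7.18% and the value that 90% of them did not exceed was 14.2%. The spread of FOS within groups (54.6% of its mean) was larger than counting gives at its mean of 15.1 counts (25.7%), and that of FOSB was 41.6% against 28.7%.

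**Figure D3:**
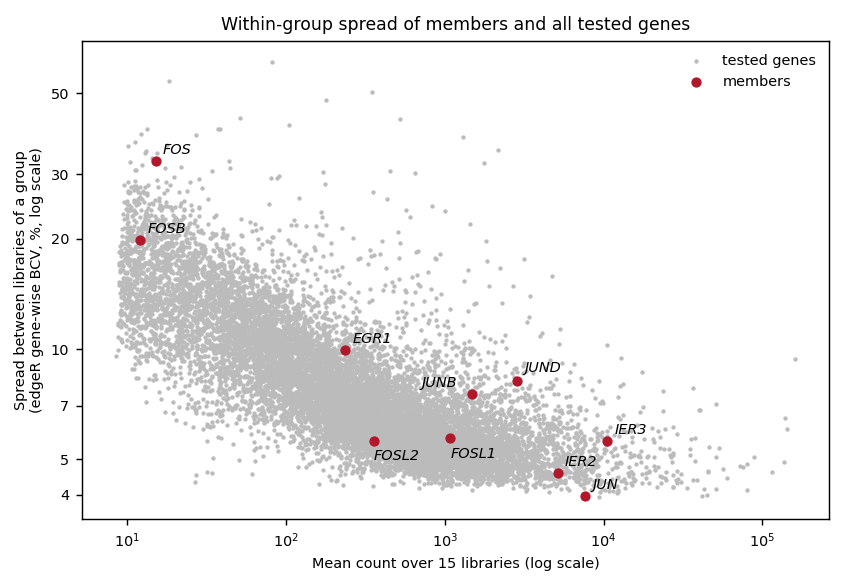
Variation coefficient between libraries of a group from edgeR, drawn toward other genes, in percent (vertical axis, log scale). The horizontal axis gives the mean count over the 15 libraries (log scale), with 1 grey point per tested gene and the 10 members in red. FOS (32.7%) lies high among genes of low count, FOSB (19.8%) lies inside that cloud, and JUN lies at the lower edge with 3.98%.

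Since the members respond to handling, the library in which each was highest was compared between members within each group. FOS and EGR1 had the same highest library in 1 of the 5 groups, and FOS and FOSB in 1 of 5. Of all 45 pairs of members, 6 shared it in no group, 22 in 1, 10 in 2 and 7 in 3 of 5 groups, which no pair exceeded. With 3 libraries per group, unrelated genes often share the highest one, so these counts are a description. The 7 pairs were FOS with JUND, FOSB with JUNB, JUND and IER2, FOSL1 with JUN, JUNB with JUND, and EGR1 with IER3. The library that was highest for the most members was ID2 replicate 1, with 5 of 10 (FOS, FOSB, JUNB, JUND and IER3), and the other libraries had 2 to 4. Averaged over the 10 members, a library deviated from its group mean by -0.12 (ID2 replicate 3) to 0.15 (ID2 replicate 1) on the log2 scale.

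Heat shock genes are another class that responds to the handling of a culture. Of the 7 tested, 1 was higher in ID1, 1 was lower in ID3, and none passed in ID2 or ID4 by edgeR, beside 22.1%, 28.6%, 35.1% and 21.6% of all tested genes in these comparisons. In ID2, 1 was higher without ID2 replicate 3. Their summed level was 3976 to 4216 CPM in GFP, 3913 to 4085 in ID1, 3930 to 4268 in ID2, 3560 to 3689 in ID3 and 3740 to 4060 in ID4. HSP90AA1 had the highest mean count of the 7 (34798, then HSPA8 with 9726) and weighs most in this sum. It was also the gene called lower in ID3 (-0.25, adjusted p = 0.00125, edgeR), where no other of the 7 passed. The ID3 libraries, in which EGR1 was higher, were the lowest for the sum, which is therefore no measure of the whole class. Its part in the EGR1 difference was not tested.

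Of the factors that pair with AP-1 proteins or share their zipper fold, 12 of 14 listed genes were tested. The ID1 libraries had 3 of them higher and 1 lower than GFP, ID2 had 3 and 3 (4 and 3 without ID2 replicate 3), ID3 had 3 and 2, and ID4 had 2 and 2. The shares called over all tested genes were 22.1%, 35.1%, 28.6% and 21.6% in the same order. JDP2, which represses AP-1 as a partner of JUN proteins, was lower in all 4 by -0.63, -0.63, -0.76 and -0.70 (log2). The small MAF proteins, which lack an activation domain, differed from each other. MAFK was higher in ID1, ID2 and ID3 (0.28, 0.42 and 0.37) with 0.22 in ID4, and MAFF was lower in ID2, ID3 and ID4 (-0.43, -0.41 and -0.40) with -0.02 in ID1.

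Among 27 tested genes of 31 other immediate early genes, 7 were higher and 5 lower in ID1, 4 and 9 in ID2 (7 and 8 without ID2 replicate 3), 8 and 6 in ID3, and 5 and 2 in ID4. Over all tested genes, calls made 22.1% in ID1, 35.1% in ID2, 28.6% in ID3 and 21.6% in ID4. The polo-like kinase genes PLK2 and PLK3 were higher in every comparison, PLK2 by 1.25, 0.97, 0.85 and 0.92 and PLK3 by 0.69, 0.56, 0.73 and 0.80. TRIB1, a pseudokinase gene, was higher in ID1, ID3 and ID4 (0.74, 0.64 and 0.51) with 0.22 in ID2. KLF4, a zinc finger factor of stem and epithelial cells, was lower in ID1, ID2 and ID3 (-1.11, -2.32 and -1.65) with -0.78 in ID4, from 31 to 69 counts in GFP and 3 to 32 in the ID libraries. BTG1, an antiproliferative gene, was lower in all 4 by -0.52, -0.53, -0.30 and -0.48. PPP1R15A, which restores translation after stress, was also lower in all 4, by -0.16, -0.45, -0.27 and -0.39.

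All 24 listed kinases and promoter factors upstream of these genes were tested. Higher and lower calls were 2 and 3 in ID1, 3 and 5 in ID2 (3 and 4 without ID2 replicate 3), 1 and 1 in ID3, and 0 and 2 in ID4, beside the same shares over all tested genes of 22.1%, 35.1%, 28.6% and 21.6%. CREB1, which binds cAMP response elements in promoters such as that of FOS, was lower in all 4 by -0.59, -0.45, -0.47 and -0.52. MAP2K7, a kinase that activates JNK, was lower in ID1, ID2 and ID4 (-0.29, -0.28 and -0.38) with -0.14 in ID3.

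Of 30 genes known as AP-1 targets, 23 were tested, and they did not share a direction. Higher and lower calls were 7 and 5 in ID1, 8 and 9 in ID2 (8 and 8 without ID2 replicate 3), 6 and 6 in ID3, and 5 and 8 in ID4. Calls in either direction made 22.1%, 35.1%, 28.6% and 21.6% of all tested genes. The list had medians of 0.05, -0.18, -0.08 and -0.07. The matrix metalloproteinase genes rose, MMP3 by 2.52, 2.74, 2.85 and 0.79 in the 4 comparisons, and MMP1 by 1.59, 1.62 and 1.69 in ID1, ID2 and ID3 with 0.45 in ID4. VEGFA, the angiogenic growth factor gene, was lower in all 4 by -1.21, -1.20, -1.11 and -0.93. PHLDA1 (-0.66, -1.13, -0.85 and -0.63) and the EGF receptor ligand gene TGFA (-1.10, -0.94, -0.62 and -0.49) were also lower in all 4. Without ID2 replicate 3, each gene named from these lists except HSP90AA1 kept its direction and its side of the threshold in ID2. HSP90AA1 moved from 0.05 to -0.007 and TRIB1 from 0.22 to 0.02, and neither passed in either fit. MMP1 was rare, with 4 to 13 counts in GFP, whereas MMP3 had 114 to 158 counts in GFP and 781 to 1220 counts in ID1, ID2 and ID3.

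**Figure D4:**
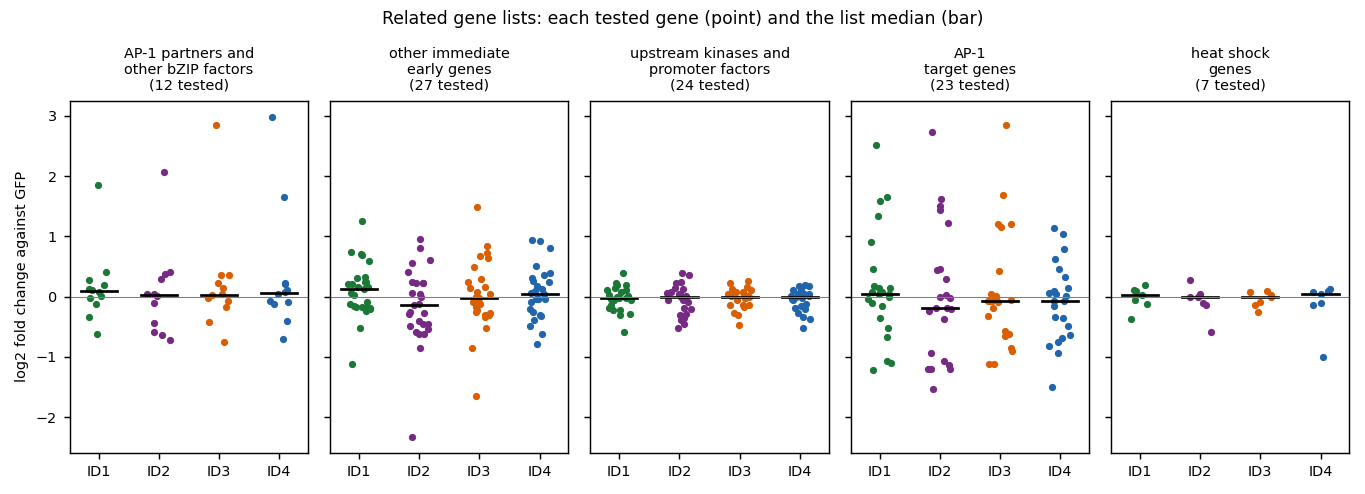
Log2 fold change against GFP (vertical axis) in ID1, ID2, ID3 and ID4 (horizontal axes) of each tested gene (points) in 5 lists of related genes (panels), with a bar at the list median. The medians of the AP-1 targets lie between -0.18 and 0.05 while single genes reach 2.85. For the upstream kinases and promoter factors the medians lie close to 0, between -0.015 and 0.002, while single genes reach -0.59 (CREB1 in ID1).

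Of the 10 members, 8 had a promoter in the RefSeq table, and each of these matched GRCh37 once. FOSL1 and IER3 had none. The AP-1 element TGANTCA, searched on both strands, was present in 1 member promoter (FOSL2) and in 7.76% of 27305 promoters of the same length. TGACNTCA was present in JUN and JUND and in 7.97% of all promoters, and the CArG box in EGR1 and in 1.28% of all. CANNTG, the E-box bound by the helix-loop-helix factors that ID proteins hold back, was present in 5 members (FOS, FOSB, FOSL2, JUND and IER2) and in 68.9% of all promoters. The EGR1 element GCGNGGGCG was present in EGR1 itself and in 9.28% of all promoters, and the NF-kB site in no member and in 10.8% of all. JUN, JUNB and EGR1 held no CANNTG match in this window, and sequence outside it was not searched.

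The genes whose log2 CPM followed FOSL1 most closely over the 15 libraries, of 12860 compared, were GPN1 (Pearson r = 0.92, Spearman rho = 0.92), LOC283352 (0.87 and 0.85), DIS3L (0.87 and 0.84) and AXL (0.87 and 0.84). For EGR1 they were MAU2 (0.90 and 0.86), DBP (0.89 and 0.88), ZNF862 (0.87 and 0.81) and PLD3 (0.85 and 0.83). The points share groups, library sizes and the same 3 libraries per group, and the genes were picked as the highest of many, so these values are a description.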

How the data were processed

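U87MG libraries of 5 groups with 3 each were analysed. Per the labels and the study's methods, eBiogen prepared them by the QuantSeq 3′ method and used hg19 (GRCh37), and the submitters' processing notes name Bowtie2 and BWA. The counting tool and gene annotation are not given in the sources used here. The authors deposited raw counts per gene, without normalization. The authors also deposited log2 values normalized between libraries, which served for the limit on low values and for the limma alternative.

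CPM were counts divided by the library total. Tested genes were the 12870 with a mean deposited log2 value of at least 3.22, the upper 50% of 25737. Counts were tested with edgeR 4.0.16 in R 4.3.3 (TMM factors 0.978 to 1.026, quasi-likelihood test, Benjamini-Hochberg adjustment). Each estimate has a 95% interval from its standard error. Likeness and deviations used log2(CPM + 0.5). The script was tested on simulated data. Alternatives were other filters, DESeq2 1.42.0 and its size factors, limma 3.58.1, the replicate number as a block, only the groups compared, and leaving out each library, which for the related lists in ID2 was chosen after seeing the data. Positions came from GENCODE lifted to GRCh37, promoters from RefSeq (GRCh38.p14). Figures used matplotlib 3.10.9.

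The 10 members and the lists of related genes were chosen with earlier results of these data known. In each list, the genes named were up to 3 per direction with the largest mean change among those passing in at least 3 of the 4 comparisons with GFP, and some that met this rule are not reported here. For FOSL1 and EGR1, the 4 tested genes with the highest Pearson correlation were named.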

Additional observations from a re-analysis of the deposited data

Results flagged for a closer look

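The effects of the ID groups, measured against the same GFP libraries, differed between ID groups in 18 of 60 tests of the members (edgeR's quasi-likelihood test of the difference itself, Benjamini-Hochberg over all tested genes, log2 scale). For JUN, ID1 minus ID2 was 0.25, ID1 minus ID4 was -0.16, ID2 minus ID3 was -0.24, ID2 minus ID4 was -0.41 and ID3 minus ID4 was -0.17. For IER3, ID1 minus ID2 was 0.60, ID1 minus ID3 was 0.44, ID1 minus ID4 was 0.38 and ID2 minus ID4 was -0.22. For JUNB, ID1 minus ID2 was -0.34, ID2 minus ID3 was 0.31, ID2 minus ID4 was 0.64 and ID3 minus ID4 was 0.34. For FOSL1, ID1 minus ID2 was 0.31 and ID2 minus ID4 was -0.24. For EGR1, ID1 minus ID3 was -0.73 and ID3 minus ID4 was 0.73. For FOSL2, ID1 minus ID4 was 0.34. FOS, FOSB, JUND and IER2 had no such difference.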

How the results depend on the processing

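The lower levels of IER3 and JUN in all 4 ID groups, the higher JUNB in ID2 and the higher EGR1 in ID3 passed in 13 of 13 alternatives each. Of 520 alternative values of the members, 482 kept direction and side of the threshold, 18 lost the call, 7 gained one and 13 changed sign. The members called in ID1 against GFP numbered 4, and 2 to 4 with a library left out. No value that changed sign passed a test. With limma on the deposited log2 values, FOS in ID2 was -0.067 and JUND in ID1 was 0.004. With a library left out, FOS in ID2 ranged from -0.67 to 0.55, FOSL1 in ID3 from -0.023 to 0.10, and JUND from -0.085 to 0.11 in ID1, -0.055 to 0.14 in ID2 and -0.13 to 0.072 in ID3. The cause was not tested. FOSB in ID4 missed the threshold with DESeq2 (adjusted p = 0.0529) and with edgeR's own filter (0.0513), and FOSL2 in ID1 with DESeq2 (0.0602), without a filter (0.0749) and with only the groups compared (0.0534).

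With the replicate number as a replicate block, 3 members passed in ID1 against GFP (FOSL2 at an adjusted p of 0.0507 by edgeR) and 3 in each of ID2, ID3 and ID4, and 2713, 4362, 3517 and 2585 of all genes passed. Libraries of equal number had correlations of -0.19 to 0.15 with GFP after removal of group means, so the numbers were not taken to pair the libraries. Low counts limit FOS and FOSB, with means of 15.1 and 12.1 counts, and their spread within groups was also larger than counting gives.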

Other observations

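DUSP1, an immediate early phosphatase gene that switches off MAP kinases, was higher in all 4 comparisons with GFP, by 0.33, 0.40, 0.68 and 0.32 on the log2 scale. It had 149 to 207 counts in GFP and 190 to 321 counts in the ID libraries. BATF2, a zipper factor that pairs with JUN proteins, passed in 1 comparison, ID4 against GFP, where it was 2.99 higher on the log2 scale (adjusted p = 8.52e-09, edgeR). It had 125 to 171 counts in ID4 against 7 to 29 in the other groups, and the other differences were 0.02 in ID1, -0.72 in ID2 and -0.17 in ID3. Both genes were chosen after their values were seen.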
